A study of Mus musculus with 10 samples.

Results

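The nuclear genes for the respiratory chain and ATP synthase were measured in mouse intestinal organoids with and without IκBα. Members were all gene symbols of the array's probe-to-gene table that start with Nduf, Uqcr, Atp5, Sdha, Sdhb, Sdhc, Sdhd, Cox4i, Cox5, Cox6, Cox7 or Cox8, with Cycs and Cyc1 added. This gave 99 of the 19505 named genes, each with 1 probe set, and all 99 are accounted for here. The rule used names alone and no measured value. By role, 36 encode subunits of complex I, 4 of complex II, 9 of complex III, 18 of complex IV and 17 of complex V, which is the ATP synthase. Cytochrome c (Cycs) adds 1, Ndufa4 and its relative Ndufa4l2 add 2, and 12 encode assembly factors, 8 for complex I (Ndufaf genes) and 4 for complex II (Sdhaf genes).

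Organoids are cultures of gut epithelium grown in a gel. Total RNA from 10 organoid samples, 5 labelled KO for IκBa and 5 labelled WT, was hybridised to 1 array each, and the design compares those groups. All 10 carry the mark P6, which the labels do not explain. No source used here states the allele, the deleted part, any Cre driver, the strain or the age of the animals. Nor do the labels say whether replicates came from separate animals or cultures, so p-values reflect only how far these samples spread, and that spread may be technical. In these bulk samples, fewer cells of a type and less RNA per cell cannot be told apart.

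In the inner mitochondrial membrane, complex I takes electrons from NADH and complex II takes them from succinate. Both pass them to ubiquinone, complex III passes them on to cytochrome c, and complex IV hands them to oxygen. Complexes I, III and IV pump protons, and ATP synthase uses the proton gradient to make ATP. A few core subunits are encoded in mitochondrial DNA and are not analysed here. Absorptive enterocytes are known to be rich in mitochondria.

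Nfkbia, which encodes IκBα, averaged 5.06 ± 0.31 in KO and 9.19 ± 0.38 in WT (log2 level, SD, n = 5 each; limma adjusted p = 2.81e-08). Its KO level lay near the negative controls, whose array medians were 4.30 to 5.10, so the change of -4.13 gives a lower limit on the fall. Over all probe sets, arrays correlated at 0.965 to 0.987 within KO, 0.963 to 0.990 within WT and 0.885 to 0.929 between the groups. All 10 measured enterocyte markers were lower in KO, with a median change of -6.21, and the log2 of their summed level was 8.84 to 9.08 in KO and 14.13 to 15.73 in WT. Other epithelial types moved too: of the Paneth markers 3 of 4 were lower (Lyz1 -6.95, Ang4 -6.45, Defa24 -7.94) and Mmp7 was higher (3.05), and 3 of 3 enteroendocrine and 2 of 4 goblet markers were lower (Muc2 -2.82). Of 5 stem and proliferation markers 2 were lower, Smoc2 (-1.91) and Ascl2 (-1.01), and all 5 had a change below 0. Of 8 epithelial markers, Krt18 (1.43), Cdh1 (0.45) and Krt8 (0.43) were higher, and Cdx2 (-2.16) and Vil1 (-1.03) were lower. None of the 5 muscle, 2 brown fat, 4 fibroblast, 3 endothelial or 2 immune markers passed the test in either direction. The Y-linked genes Eif2s3y (-5.20), Uty (-4.47) and Kdm5d (-2.42) were also lower in KO, so the KO label and the Y-linked signal cannot be told apart. The 8 spiked bacterial and phage control probe sets were all lower in KO, by 0.10 to 0.85. The part of any of these in the results below was not tested.

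Respiratory chain and ATP synthase transcripts were broadly lower in KO organoids. Of the 99 members, 69 were lower (69.7%) and 0 were higher at a limma adjusted p under 0.05, and 0 were higher at an unadjusted p under 0.05 as well. Over all 19572 tested probe sets, 11.7% were lower and 15% were higher. The median change of the members, KO minus WT on the log2 scale, was -0.57 (range -1.56 to 0.26, median standard error 0.12), against -0.01 for all tested probe sets. In 64 members all KO arrays lay below all WT arrays, an arrangement found in 9.07% of probe sets, and in 1 member, Atp5g2, all KO arrays lay above. Changes were mostly moderate: 8 members were lower by over 2-fold, where 4.87% of all probe sets were.

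Every complex had members that fell. Complex III had 9 of 9 lower (median -0.80) and complex II 4 of 4 (median -0.83). Complex V followed with 14 of 17 (median -0.62), complex I with 27 of 36 (median -0.67) and complex IV with 9 of 18 (median -0.37). The complex IV count and median take in the dim isoforms Cox4i2, Cox6a2, Cox6b2, Cox7b2, Cox8b and Cox8c, none of which passed. Among the assembly factors 5 of 8 for complex I were lower (median -0.52), and 0 of 4 for complex II were (median -0.07). For the complex II factors 2 passed at an unadjusted p under 0.05, both lower. The 30 members that did not pass were often dim: 60 of 73 members with a mean level of 8 or more were lower, and 9 of 26 below that level. Among all probe sets as bright as the first set, 16.9% were lower.

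**Figure D1:**
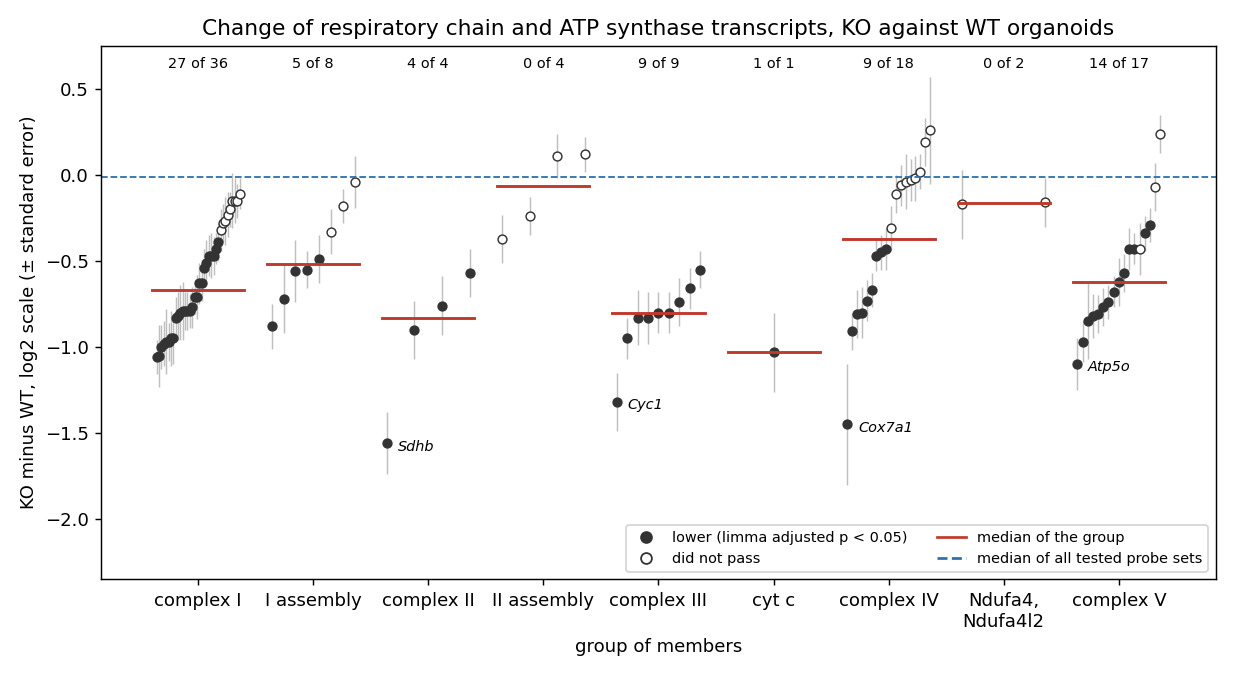
Change of each of the 99 members (KO minus WT, log2 scale, with standard error) by complex, with the median of each group in red and the median of all tested probe sets as a dashed line; filled points passed the test and the counts above each group give those lower. All 9 members of complex III and all 4 of complex II are filled, and the lowest point is Sdhb at -1.56; with the spiked controls as zero, the medians of complex IV (0.12) and of the complex II assembly factors (0.42) lie above 0.

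The zero of the scale bears on these counts. With each array centred on its spiked controls, an alternative chosen after seeing the data, the median change of all tested probe sets became 0.48 and that of the members -0.08. Under that scale 25 members were lower and 16 higher, 37 members turned from below to above 0, and complex IV reversed to a median of 0.12. Of all 19572 tested probe sets, 972 were lower and 12655 higher under it. Relative to other genes, 93 of 99 members lay below the median of all probe sets, and the members' median lay at -0.56 from it. The centring moves the change of every gene by the same amount. These positions therefore could not differ from those on the deposited scale. Values below are on the deposited scale.

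Regulatory sequence near the start of these genes is shown for 5 members, since 2 of the 3 paralogs for the c subunit of ATP synthase fell and complex II held the largest fall. They were picked after their values were seen, and that reason does not cover Uqcrc1. The 5 do not represent the members: only Sdhb had no match, while 35.6% of member windows held any motif looked for. The windows are those of RefSeq on GRCm38.p6, 250 bases before to 50 bases after the transcription start, written on the gene's strand, and the last 50 bases are transcribed. Capitals mark matches on either strand to the motifs of NRF1 and of estrogen-related receptors (TNAAGGTCA), both known regulators of respiratory genes. The capitals in Atp5g2 are the strict NRF1 motif, and a looser form lets the fifth base be any. Atp5g3 (chr2:73911277-73911576, minus strand) fell in KO, and its paralog Atp5g2 (chr15:102670998-102671297, minus strand) did not pass the test. The remaining paralog, Atp5g1, fell too, and its window, not printed, had no match. Sdhd (chr9:50603800-50604099, minus strand) and Uqcrc1 (chr9:108936398-108936697, plus strand) fell. Sdhb (chr4:140961021-140961320, plus strand) had the lowest change of all members and no match.
Atp5g3: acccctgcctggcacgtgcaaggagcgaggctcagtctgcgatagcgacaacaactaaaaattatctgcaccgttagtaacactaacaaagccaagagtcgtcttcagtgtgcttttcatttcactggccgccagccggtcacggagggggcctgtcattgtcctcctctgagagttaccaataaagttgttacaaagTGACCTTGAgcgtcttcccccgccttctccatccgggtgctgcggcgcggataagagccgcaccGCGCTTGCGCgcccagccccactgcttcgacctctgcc
Atp5g2: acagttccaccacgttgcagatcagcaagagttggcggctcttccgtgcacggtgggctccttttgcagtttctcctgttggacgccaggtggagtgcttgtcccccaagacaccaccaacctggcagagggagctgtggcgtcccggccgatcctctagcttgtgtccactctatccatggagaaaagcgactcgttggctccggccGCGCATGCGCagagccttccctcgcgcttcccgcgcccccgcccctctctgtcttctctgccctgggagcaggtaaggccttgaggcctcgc
Sdhd: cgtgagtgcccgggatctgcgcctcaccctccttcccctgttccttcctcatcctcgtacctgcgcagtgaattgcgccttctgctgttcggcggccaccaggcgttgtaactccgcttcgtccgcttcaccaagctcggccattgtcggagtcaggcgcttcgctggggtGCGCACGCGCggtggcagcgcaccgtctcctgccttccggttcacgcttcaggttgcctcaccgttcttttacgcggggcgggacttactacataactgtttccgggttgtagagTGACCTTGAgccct
Uqcrc1: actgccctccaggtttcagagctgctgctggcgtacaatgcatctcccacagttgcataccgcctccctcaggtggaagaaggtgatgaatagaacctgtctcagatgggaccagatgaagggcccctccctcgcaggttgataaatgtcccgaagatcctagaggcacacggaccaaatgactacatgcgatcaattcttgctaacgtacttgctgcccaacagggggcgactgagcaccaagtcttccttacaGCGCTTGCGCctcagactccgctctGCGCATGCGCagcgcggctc
Sdhb: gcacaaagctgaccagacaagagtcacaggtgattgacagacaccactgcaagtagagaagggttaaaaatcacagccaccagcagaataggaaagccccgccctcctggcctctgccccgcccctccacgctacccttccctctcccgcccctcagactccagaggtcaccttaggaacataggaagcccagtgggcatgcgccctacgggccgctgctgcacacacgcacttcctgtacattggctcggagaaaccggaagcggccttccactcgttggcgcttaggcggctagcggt

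Of the 99 members, 82 had such a window, 87 windows in all. The strict NRF1 motif was in 8.05% of them, against 1.41% of the 19143 windows of tested genes and 0.971% of all 32851. The looser form, which includes every strict match, was in 25.3% of member windows and 6.77% of tested-gene windows. The YY1 motif was in 6.9% against 1.25%, the ETS motif CCGGAAGT in 5.75% against 5.33%, and the estrogen-related receptor motif in 3.45% against 0.972%. Among members, any of these was in 40% of the 60 windows of genes that fell and in 25.9% of the 27 windows of genes that did not pass. Those shares were not tested against each other. Of the 87 member windows, 60 belonged to genes that fell. The estrogen-related receptor motif was in 3 member windows, those of Atp5g3, Sdhd and Ndufb4, all of which fell. Its lack in Sdhb says only that these letters are not in that window. Matches are descriptions of sequence and not of binding.

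Complex II, succinate dehydrogenase, is also an enzyme of the citric acid cycle and has no subunit encoded in mitochondrial DNA. Its 4 subunits were lower in KO. Sdhb, the iron-sulfur subunit, was at 9.08, 9.43, 9.19, 8.78 and 8.42 in KO replicates 1 to 5 and at 10.45, 10.60, 10.35, 10.90 and 10.43 in WT. The groups were apart by nearly a full log2 unit, and the fall was 2.96-fold (-1.56, standard error 0.18, limma adjusted p = 5.51e-05). Sdha, the flavoprotein that oxidises succinate, was at 9.08, 9.22, 9.20, 8.97 and 8.76 in KO and 9.37, 10.04, 10.14, 10.30 and 9.88 in WT. Here WT replicate 1 lay close to the KO arrays, although the groups did not overlap (-0.90, standard error 0.17, limma adjusted p = 0.0018). Sdhc, a membrane anchor, was at 8.50, 9.00, 8.47, 8.64 and 9.04 in KO and 9.37, 9.29, 9.17, 9.47 and 9.19 in WT, a change of -0.57 (standard error 0.14, limma adjusted p = 0.00824). Sdhd, the other anchor, was at 9.63, 10.02, 9.99, 9.56 and 9.47 in KO and 9.99, 10.60, 10.48, 10.71 and 10.67 in WT. It was the one complex II subunit whose groups overlapped, through WT replicate 1 (-0.76, standard error 0.17, limma adjusted p = 0.00482).

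The complex II assembly factors did not pass. Sdhaf1, which serves the insertion of iron-sulfur clusters, was at 7.51, 7.79, 7.65, 7.54 and 7.30 in KO and 7.81, 7.85, 7.82, 7.68 and 7.86 in WT (-0.24, limma adjusted p = 0.12). Sdhaf3, which acts in the same step, was at 6.65, 6.54, 6.42, 6.40 and 6.50 in KO and 6.37, 6.84, 7.15, 6.99 and 7.03 in WT, where replicate 1 was below every KO array (-0.37, limma adjusted p = 0.0762). It passed without WT replicate 1 (adjusted p = 0.0229). With the spiked controls as zero, Sdhaf1 was at 0.25 and Sdhaf3 at 0.12. Sdhaf2, which attaches the flavin to Sdha, had a change of 0.11 and Sdhaf4 one of 0.12, both within the spread of the arrays. Sdhaf4 averaged 5.10 in KO and 4.98 in WT, within the array medians of negative controls (4.30 to 5.10), so its value says little about a change.

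In complex III the 9 members fell by 0.55 to 1.32, and in each the KO and WT arrays were apart. Cyc1, cytochrome c1, the subunit that passes electrons on to cytochrome c, was at 7.51, 8.01, 8.11, 7.66 and 7.31 in KO and 9.40, 8.96, 8.87, 9.05 and 8.90 in WT. Its fall of 2.49-fold (-1.32, standard error 0.17, limma adjusted p = 0.000102) was the largest of the complex. Uqcr10, a small membrane subunit, was at 8.62, 8.72, 8.72, 8.44 and 8.20 in KO and 9.38, 9.47, 9.53, 9.44 and 9.65 in WT (-0.95, standard error 0.12, limma adjusted p = 8.52e-05). Uqcrc1, a core subunit on the matrix side, was at 9.48, 9.96, 9.82, 9.73 and 9.54 in KO and 10.66, 10.46, 10.32, 10.57 and 10.53 in WT (-0.80, standard error 0.12, limma adjusted p = 0.000295). The other core subunit Uqcrc2 changed by -0.80, the Rieske iron-sulfur protein Uqcrfs1 by -0.74 and the hinge protein Uqcrh by -0.83. Small subunits Uqcr11 (-0.83), Uqcrq (-0.66) and Uqcrb (-0.55) completed the set.

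Cycs encodes somatic cytochrome c, the mobile carrier between complexes III and IV that also takes part in apoptosis when released. It was at 9.64, 10.43, 10.84, 9.81 and 9.62 in KO and 11.35, 11.19, 10.99, 10.95 and 10.98 in WT. The groups were apart, with KO replicate 3 within 0.2 of the lowest WT array, and the fall was 2.04-fold (-1.03, standard error 0.23, limma adjusted p = 0.00517). The KO arrays spread more (SD 0.54) than the WT arrays (SD 0.17).

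Complex I is the largest complex, with an arm in the matrix that oxidises NADH (the N module) and reduces ubiquinone (the Q module), and a membrane arm that pumps protons. All 36 of its members had a change below 0. In the Q module 4 of 4 were lower (median -0.70), in the membrane arm 18 of 22 (median -0.75) and in the N module 5 of 10 (median -0.38). Those shares were not tested against each other. The membrane arm here is every subunit not listed under the N or Q module, Ndufa9 (-0.83) among them. It may therefore hold subunits of the matrix arm.

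In the membrane arm, the accessory subunit Ndufb5 was at 9.04, 9.26, 9.20, 9.10 and 8.86 in KO and 10.19, 10.19, 10.11, 10.23 and 10.07 in WT. The groups were apart, and the 2.09-fold fall had the smallest adjusted p of all 99 (-1.06, standard error 0.10, limma adjusted p = 7.98e-06). Ndufb9, another accessory subunit of this arm, was at 10.25, 10.15, 10.22, 10.22 and 10.12 in KO and 11.39, 11.29, 10.98, 11.20 and 10.95 in WT (-0.97, standard error 0.11, limma adjusted p = 3.32e-05). Further falls here were Ndufa10 (-0.98), Ndufa1 (-0.97), Ndufab1 (-0.95), Ndufb10 (-0.95), Ndufb2 (-0.82) and Ndufs5 (-0.80). Ndufab1 is the mitochondrial acyl carrier protein, which also serves fatty acid and lipoic acid synthesis. Ndufb4 changed by -0.71 and Ndufb4b by -0.54; these are near-identical copies, so their separate values are uncertain.

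In the matrix arm, Ndufa5 of the Q module was at 7.33, 7.78, 8.34, 7.71 and 7.72 in KO and 9.06, 9.06, 8.82, 8.54 and 8.66 in WT. KO replicate 3 came nearest to WT, without overlap (-1.05, 2.07-fold, standard error 0.18, limma adjusted p = 0.000905). Ndufs1, the large iron-sulfur subunit of the N module, was at 8.29, 8.60, 8.76, 8.20 and 8.13 in KO and 9.29, 9.44, 9.49, 9.48 and 9.30 in WT (a fall of 2.01-fold, limma adjusted p = 0.000125). Ndufv2, which holds another iron-sulfur cluster, was at 9.19, 9.22, 9.41, 9.19 and 9.23 in KO and 9.88, 10.24, 10.06, 10.09 and 9.91 in WT (-0.79, standard error 0.10, limma adjusted p = 9.55e-05). Ndufv1, which binds NADH, changed by -0.79. Core subunits Ndufs8 (-0.77), Ndufs7 (-0.63) and Ndufs3 (-0.63), which line the path to ubiquinone, fell as well.

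The 9 complex I members that did not pass had changes of -0.32 to -0.11. They were Ndufv3, Ndufb3, Ndufc2, Ndufs4, Ndufa7, Ndufa6, Ndufa2, Ndufa3 and Ndufa13. Ndufv3, an accessory subunit of the NADH-binding tip, was at 7.60, 8.04, 7.59, 7.95 and 7.73 in KO and 8.16, 8.14, 8.11, 8.20 and 7.93 in WT (-0.32, limma adjusted p = 0.0588). Without KO replicate 2, its highest KO array, it passed, and with the spiked controls as zero it was at 0.17.

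Among the complex I assembly factors, Ndufaf4 was at 8.33, 8.70, 8.78, 8.38 and 8.28 in KO and 9.37, 9.40, 9.52, 9.12 and 9.44 in WT, with the groups apart (-0.88, standard error 0.13, limma adjusted p = 0.000292). Ndufaf8 was at 7.14, 7.07, 7.21, 7.21 and 7.17 in KO and 7.88, 7.82, 7.65, 7.84 and 7.37 in WT, also apart (-0.55, standard error 0.11, limma adjusted p = 0.00306). Ndufaf5, an enzyme that modifies a subunit of the Q module, was at 5.53, 5.57, 6.08, 5.32 and 5.28 in KO and 6.54, 6.21, 6.51, 5.65 and 6.49 in WT. Its groups overlapped through WT replicate 4 (-0.72, standard error 0.20, limma adjusted p = 0.0191). Ndufaf1 and Ndufaf6 also fell, with overlapping groups. Only 3 of the 8 factors were lower without KO replicate 1, 4 or 5 or without WT replicate 2 or 3.

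In complex IV, cytochrome c oxidase, 9 of 18 members fell. Several of its nuclear subunits exist in a form used in most tissues and a form known from muscle, lung or testis. In the common forms, Cox7b was at 9.89, 10.19, 10.25, 10.18 and 9.93 in KO and 11.11, 11.09, 10.87, 11.08 and 10.83 in WT (-0.91, standard error 0.11, limma adjusted p = 7.12e-05). Cox6c was at 10.76, 10.99, 11.07, 11.02 and 10.69 in KO and 11.54, 11.64, 11.58, 11.66 and 11.46 in WT (-0.67, standard error 0.10, limma adjusted p = 0.000467). For both genes the groups were apart. Cox4i1, a subunit that takes part in regulation by ATP, was at 10.31, 10.33, 10.21, 10.18 and 9.76 in KO and 11.05, 10.92, 10.74, 10.88 and 10.84 in WT (-0.73, standard error 0.12, limma adjusted p = 0.000924). Cox7a2 was at 8.66, 9.11, 9.11, 9.02 and 8.78 in KO and 10.06, 9.93, 9.53, 9.73 and 9.51 in WT (-0.81, standard error 0.14, limma adjusted p = 0.0011). Cox6b1, which faces cytochrome c, was at 10.05, 10.21, 10.30, 10.18 and 10.00 in KO and 10.62, 10.61, 10.57, 10.68 and 10.60 in WT. It changed by -0.47 (standard error 0.09, limma adjusted p = 0.00229), and with the spiked controls as zero it turned to 0.02. Cox5a (-0.80), Cox5b (-0.43) and Cox7c (-0.45) also fell.

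Some common subunits with high levels on both groups of arrays did not pass. Cox6a1 was at 11.33, 11.80, 11.47, 11.67 and 11.62 in KO and 11.68, 11.56, 11.64, 11.87 and 11.71 in WT. Its difference was -0.11, with a 95% interval of -0.36 to 0.13 (limma adjusted p = 0.518). Cox8a was at 11.39, 11.81, 11.34, 11.56 and 11.49 in KO and 11.37, 11.59, 11.44, 11.72 and 11.59 in WT, a difference of -0.03 with an interval of -0.28 to 0.23. For both genes the groups overlapped broadly, and both differences were above 0 with the spiked controls as zero (0.38 and 0.47).

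Cox7a1, the form known from heart and skeletal muscle, stood out among the tissue-restricted isoforms. It was at 5.98, 6.20, 6.05, 6.28 and 5.98 in KO and 7.03, 7.61, 6.76, 9.04 and 7.29 in WT. No KO array reached the lowest WT array, and WT replicate 4 was far above the others, so the WT spread was wide (SD 0.89). The fall of 2.73-fold (-1.45, standard error 0.35, limma adjusted p = 0.00839) ranged from -1.65 to -0.96 over the alternatives, with the call kept. Its KO mean (6.10) was in the range of the dim isoforms below, so the true fall may be larger. Muscle markers, none of which passed, had a mean level of 5.61 to 5.97 on KO arrays and 5.35 to 5.68 on WT arrays.

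The other restricted isoforms were dim and did not pass. Cox4i2, known from lung, was at 5.98, 6.31, 6.06, 5.76 and 5.86 in KO and 6.07, 6.17, 6.11, 6.10 and 5.83 in WT (-0.06). Cox6b2, known from testis, ranged from 5.34 to 7.14 in KO and from 5.37 to 6.58 in WT (0.26, standard error 0.31). Cox6a2 (0.02) and Cox8b (-0.04), both known from muscle, and Cox7b2 (-0.02) and Cox8c (0.19) had overlapping groups. With the spiked controls as zero, Cox4i2 was at 0.43, Cox7b2 at 0.47 and Cox8b at 0.45. Cox7a2l, which joins complexes III and IV into supercomplexes, was at 9.62, 9.39, 8.95, 9.46 and 9.33 in KO and 9.71, 9.65, 9.69, 9.77 and 9.51 in WT (-0.31, limma adjusted p = 0.0909). It passed without KO replicate 1 (adjusted p = 0.049), and with the spiked controls as zero it was at 0.18. Ndufa4, named for complex I and now counted with complex IV, was at 11.00, 10.95, 11.11, 10.60 and 10.48 in KO and 10.95, 11.23, 11.07, 10.76 and 10.93 in WT. Its difference of -0.16 had an interval of -0.48 to 0.15, and its relative Ndufa4l2, known to rise in low oxygen, differed by -0.17 with an interval of -0.60 to 0.26. With the spiked controls as zero these were 0.33 and 0.32.

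**Figure D2:**
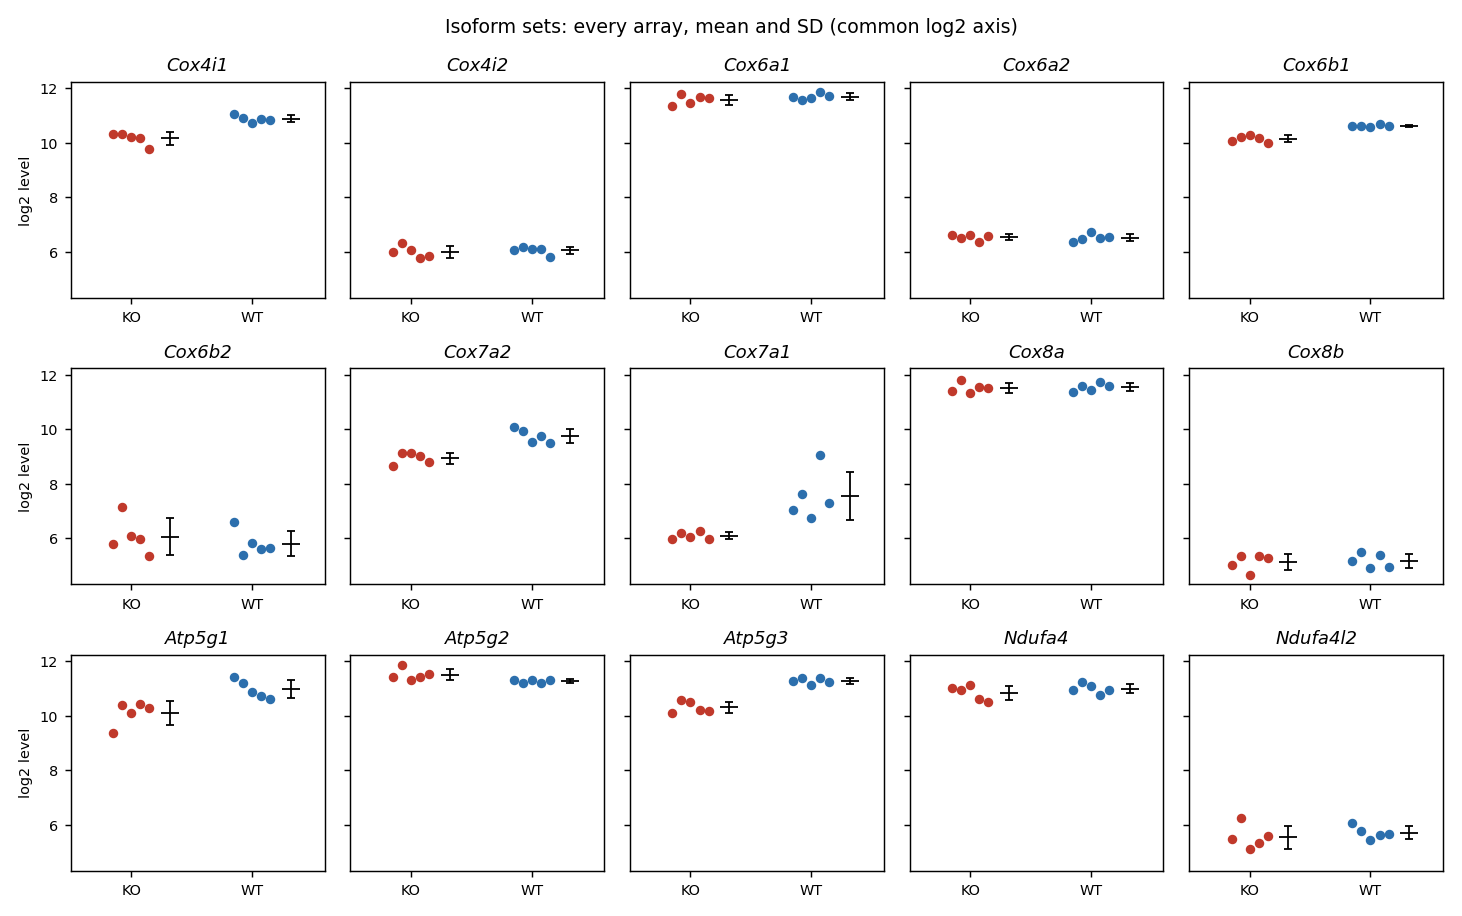
Log2 level of 15 isoforms on every array, KO in red and WT in blue, with mean and SD, on a common axis; levels of different genes cannot be set against each other on an array. Cox4i1, Cox6b1, Cox7a2, Cox7a1, Atp5g1 and Atp5g3 have their KO points below their WT points, and Atp5g2 has them above; with the spiked controls as zero, Cox6b1 (0.02), Cox6a1 (0.38), Cox8a (0.47), Cox4i2 (0.43), Cox8b (0.45), Ndufa4 (0.33) and Ndufa4l2 (0.32) change sign.

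ATP synthase has a catalytic F1 head in the matrix and a membrane part whose ring of c subunits turns as protons pass, joined by stalks. Of the membrane and outer stalk members 11 of 12 were lower (median -0.76). Of the F1 head, counted here with the central shaft genes Atp5c1, Atp5d and Atp5e, 3 of 5 were (median -0.43). No test compared these shares. Atp5o, the OSCP subunit that ties the outer stalk to the head, was at 9.80, 10.40, 10.13, 9.65 and 9.58 in KO and 10.96, 11.03, 10.93, 11.12 and 11.01 in WT. The WT arrays were tight (SD 0.07), the KO arrays less so (SD 0.34), and the fall was 2.14-fold (-1.10, standard error 0.15, limma adjusted p = 0.000195). Atp5c1, the central shaft, was at 10.72, 10.84, 10.83, 10.83 and 10.64 in KO and 11.42, 11.54, 11.46, 11.45 and 11.38 in WT (-0.68, standard error 0.09, limma adjusted p = 9.95e-05). Atp5l, subunit g of the membrane part, was at 8.72, 9.09, 9.05, 8.74 and 8.65 in KO and 9.64, 9.64, 9.67, 9.69 and 9.65 in WT (-0.81, standard error 0.11, limma adjusted p = 0.000158). Falls were also seen for the stalk subunit Atp5pb (-0.82), for Atp5j2 (-0.77), Atp5mpl (-0.74), Atp5k (-0.62) and Atp5j (-0.57), and for the alpha subunit Atp5a1 (-0.43).

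Atp5b, the catalytic beta subunit, was at 12.13, 12.41, 12.36, 12.19 and 12.10 in KO and 12.75, 12.55, 12.58, 12.47 and 12.52 in WT. The groups were apart but close (-0.34, standard error 0.10, limma adjusted p = 0.028). This call was lost without KO replicate 1, 4 or 5, without WT replicate 1, 2 or 3, and with the replicate number as a block (adjusted p = 0.0671), and with the spiked controls as zero the change was 0.15. Atp5h (-0.29, limma adjusted p = 0.0451) lost its call in 9 of the 10 fits that left out 1 array. Atp5e (-0.43) and Atp5d (-0.07), the small subunits at the foot of the shaft, did not pass, although Atp5e passed without KO replicate 2.

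The c subunit is encoded by 3 genes, Atp5g1, Atp5g2 and Atp5g3, whose mature proteins are identical and whose import sequences differ. Of these, 2 fell and 1 did not pass. Atp5g1 was at 9.36, 10.40, 10.10, 10.41 and 10.28 in KO and 11.43, 11.18, 10.86, 10.72 and 10.62 in WT (-0.85, standard error 0.22, limma adjusted p = 0.0134). Atp5g3 was at 10.10, 10.57, 10.48, 10.22 and 10.16 in KO and 11.28, 11.39, 11.12, 11.36 and 11.22 in WT (-0.97, standard error 0.12, limma adjusted p = 6.59e-05). For both the KO arrays lay below the WT arrays. Atp5g2 was at 11.42, 11.84, 11.32, 11.41 and 11.51 in KO and 11.31, 11.19, 11.31, 11.19 and 11.30 in WT, with every KO array above the highest WT array, and it did not pass (0.24, standard error 0.11, limma adjusted p = 0.142). All KO above all WT was found in 12.3% of probe sets.

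A difference in change between these genes does not depend on the zero of the scale. The change of Atp5g3 lay -1.21 from that of Atp5g2, and the change of Atp5g1 lay -1.09 from it. The change of Atp5g1 lay 0.12 from that of Atp5g3. The genes were compared after their values had been seen, so these differences are descriptions with no test.

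**Figure D3:**
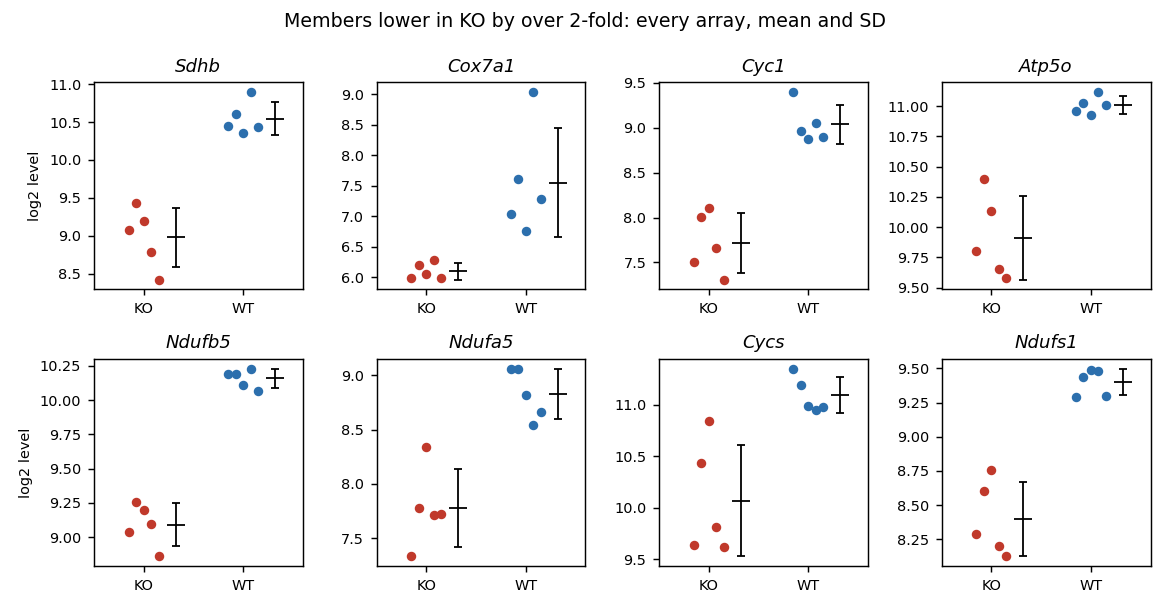
Log2 level on every array, with mean and SD, of the 8 members lower in KO by over 2-fold; each panel has its own axis. In each panel the 5 KO points lie below the 5 WT points, and WT replicate 4 stands apart for Cox7a1 at 9.04.

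The KO arrays differed among themselves in a shared way. With each member centred on its mean over the arrays, the mean over all members was -0.40, -0.11, -0.15, -0.30 and -0.45 in KO replicates 1 to 5 and 0.30, 0.32, 0.24, 0.31 and 0.22 in WT. KO replicates 2 and 3 were thus nearest to WT and KO replicates 1 and 5 farthest. KO replicate 5 had the lowest KO value in 48 members and replicate 1 in 29, while replicates 2 and 3 had the highest in 45 and 41. Complex III had the same order at its ends, with -0.49, -0.18, -0.26, -0.43 and -0.72 in KO. Stem and proliferation markers, as a list mean, were at 7.28, 7.90, 8.07, 7.03 and 6.96 on these KO arrays, again highest in replicates 2 and 3. On the WT arrays this list mean was at 8.98, 8.62, 9.59, 7.66 and 8.95, and KO replicates 2 and 3 lay above WT replicate 4. Within the list, the KO values of Mki67 were 8.75, 10.06, 10.83, 8.10 and 6.88. Those of Top2a were 7.16, 8.54, 9.10, 6.76 and 6.10, so both were highest in replicates 2 and 3. The dim Ascl2 was highest there too, at 5.68 in both. Lgr5 was highest in KO replicate 5 and lowest in replicate 3 (8.65, 8.48, 8.09, 8.29 and 9.54). Smoc2 varied little in KO (6.65 to 6.83). The list means of the dim muscle, endothelial and germ cell markers were also highest in KO replicates 2 and 3. Those of the remaining marker lists, epithelium and enterocytes among them, had other orders. The order was therefore not particular to the stem and proliferation list. The part of stem or dividing cells in the members' values was not tested. In WT, complex II spread most, at 0.20, 0.54, 0.44, 0.75 and 0.45, and the enterocyte list mean was at 10.18, 11.83, 10.88, 12.08 and 11.65, lowest in replicate 1 and highest in replicate 4 for both. Complexes III (0.53) and IV (0.34) were also highest in WT replicate 4. Complexes I (0.37) and V (0.32) were instead highest in WT replicate 1. No test compared these orders.

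**Figure D4:**
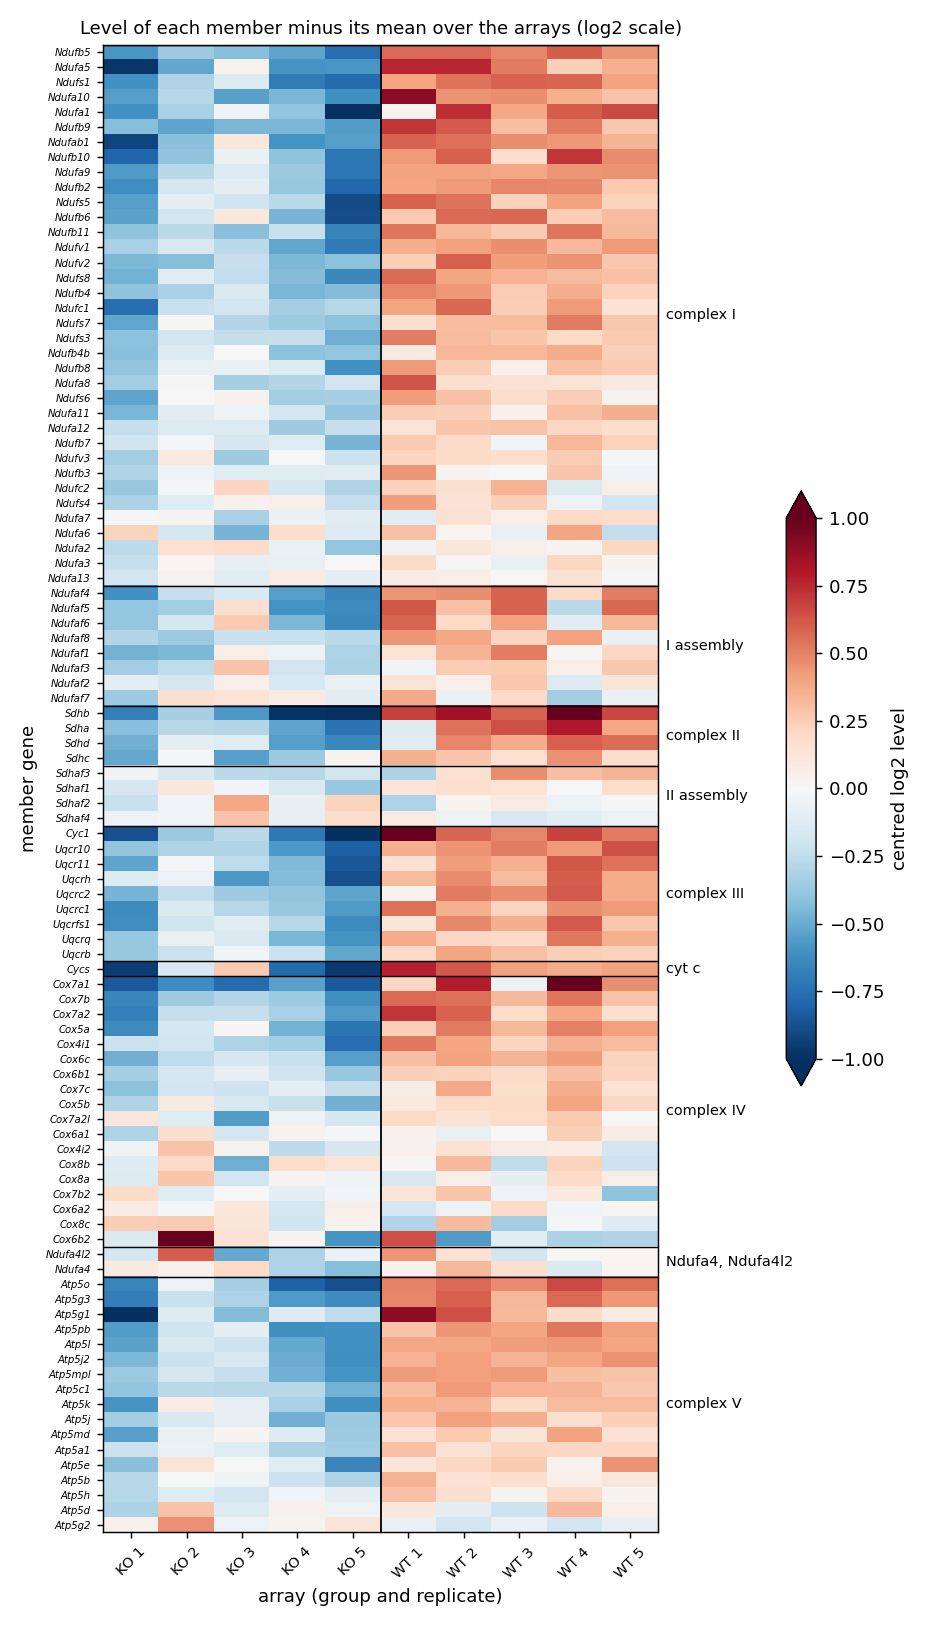
Level of each of the 99 members on each array minus its mean over the 10 arrays (log2 scale, blue low, red high), ordered by complex and change. Most rows are blue in KO and red in WT, most deeply in KO replicates 1 and 5, whose means over all members are -0.40 and -0.45; the rows of complex II assembly and the lower rows of complex IV show no such split, and with the spiked controls as zero 56 members have a change below 0.

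The members on the X chromosome, Cox7b, Ndufb11 and Ndufa1, numbered 3 and were all lower (median -0.91). Leaving them out, 66 of 96 were lower with a median of -0.56.

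Other mitochondrial genes, from lists chosen with earlier results of these data known, were also lower in part. Of 181 distinct genes 80 were lower (44.2%) and 2 were higher, with a median of -0.37. With the spiked controls as zero 15 were lower and 42 higher, beside 972 and 12655 of all 19572 tested probe sets. Against a 1.2-fold null (limma treat) 33 were lower, and the share over all probe sets is not given here. The pyruvate dehydrogenase and citric acid cycle list had 12 of 16 lower, and the 3 with the smallest p were Suclg1 (-0.96), Mdh2 (-1.15) and Dld (-0.76). Coenzyme Q synthesis had 7 of 10 lower and 1 higher. In it Coq8a, a kinase-like protein needed for the pathway, changed by -3.05 (standard error 0.19, limma adjusted p = 3.04e-07), Coq5 by -0.69, and its relative Coq8b rose by 0.82. Of the other enzymes that feed ubiquinone 3 of 5 were lower: the glycerol phosphate dehydrogenase Gpd2 (-1.88) and the electron transfer flavoprotein genes Etfa (-1.09) and Etfdh (-0.70).

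Factors that build the complexes fell in part. For complex IV 12 of 19 were lower, among them Cox10 (-0.97), which makes heme for the enzyme, Taco1 (-0.93) and Cox19 (-0.74). For complex III 2 of 6 were lower, Ttc19 (-0.77) and Lyrm7 (-0.31), and Lyrm7 turned to 0.18 with the spiked controls as zero. Of the other factors for complexes I and V 4 of 9 were lower, with Ecsit (-0.81), Atpaf1 (-0.71) and Atpaf2 (-0.58), and Nubpl was higher (0.34). The supercomplex and inhibitor list had 0 of 4 past the limma test; at an unadjusted p under 0.05, 2 were lower and 1 was higher, with Higd1a at -0.58 and Higd2a at 0.42.

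Among nuclear regulators of mitochondrial genes 4 of 11 were lower. The coactivator Ppargc1a was at 5.35, 7.04, 5.95, 5.99 and 5.94 in KO and 9.44, 7.74, 7.42, 8.94 and 7.28 in WT, with the groups apart (-2.11, standard error 0.44, limma adjusted p = 0.00341). Ppara (-2.93), Esrrg (-2.48) and Ppargc1b (-1.19) were the others. The KO level of Esrrg (5.02) was no higher than negative controls reached, and that of Ppara (5.30) was close above them, so their changes are lower limits on the fall. Esrra is not named on the array table used here. Nrf1, whose motif is capitalised in the windows above, differed by -0.06 (limma adjusted p = 0.83) and by 0.43 with the spiked controls as zero. Tfam, which packs and transcribes mitochondrial DNA, was at 6.59, 6.69, 7.50, 6.83 and 6.77 in KO and 7.97, 7.81, 8.30, 7.48 and 8.05 in WT. The groups overlapped by a narrow margin, through KO replicate 3 and WT replicate 4 (-1.04, standard error 0.19, limma adjusted p = 0.0016). With Polg2 (-0.65) it made 2 of 10 lower in the list for mitochondrial DNA.

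The mitochondrial ribosome had 28 of 76 lower (median -0.33), and the 3 with the smallest p were Mrps31 (-1.41), Mrpl15 (-0.81) and Mrpl48 (-0.75). Outer membrane, import and chaperone genes had 6 of 16 lower, with Tomm70a (-0.92), Vdac1 (-0.47) and Phb (-0.47), the last 2 at 0.02 with the spiked controls as zero. Enzymes that switch pyruvate between oxidation and lactate had 2 of 8 lower, Pdk2 (-1.15), which inhibits pyruvate dehydrogenase, and the lactate carrier Slc16a1 (-0.51), and 1 higher, Ldhb (0.72).

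**Figure D5:**
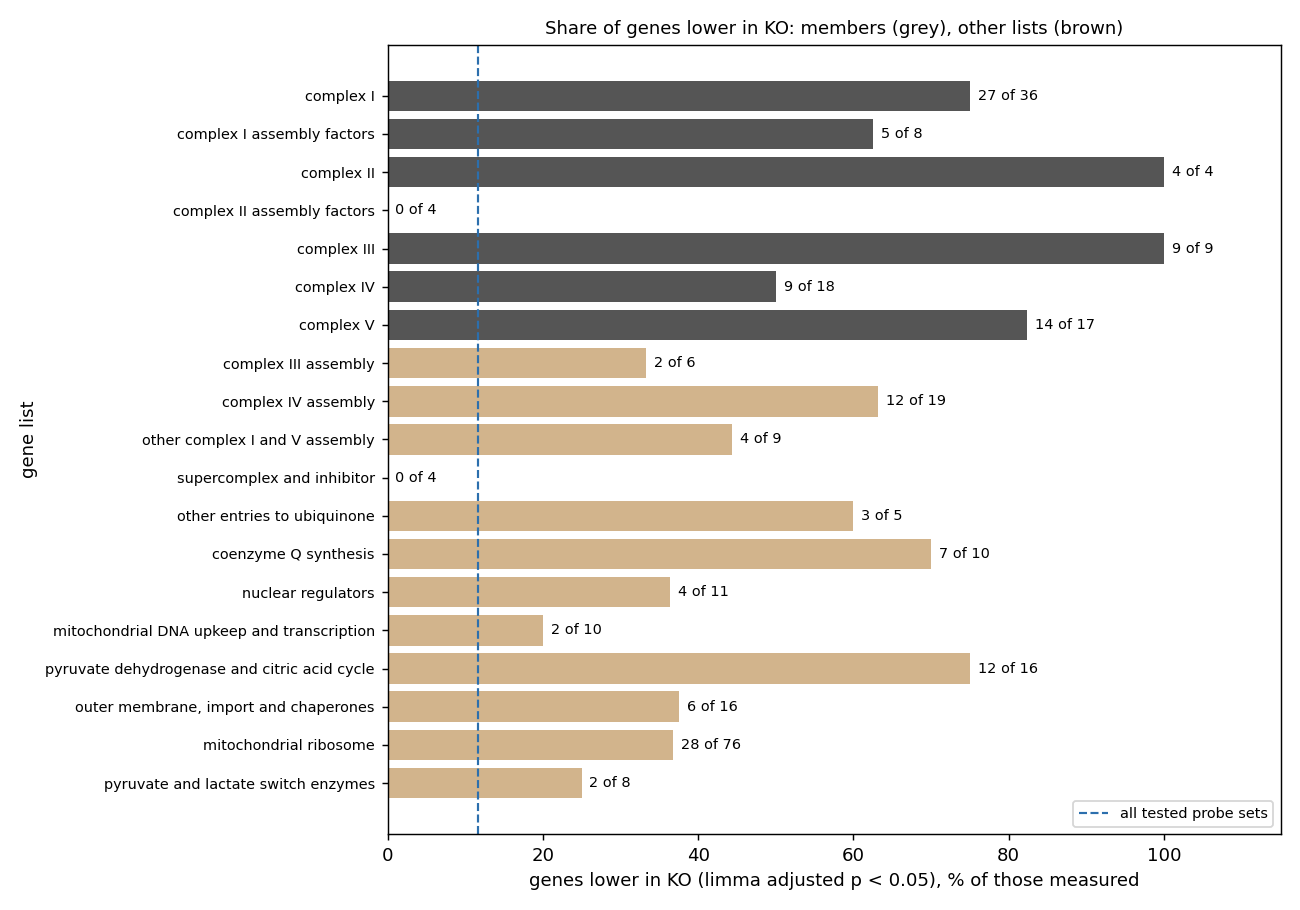
Share of measured genes lower in KO (limma adjusted p under 0.05) for each group of members (grey) and each other mitochondrial list (brown), with counts; the dashed line is the 11.7% of all tested probe sets. Complexes II and III are at 100%, the mitochondrial ribosome is at 36.8%, and complex II assembly and the supercomplex list are at 0%. With the spiked controls as zero 25 members are lower and 16 higher, beside 972 and 12655 of all 19572 tested probe sets.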

How the data were processed

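Total RNA (100 ng per sample) from 5 KO and 5 WT organoid samples was biotin-labelled and hybridised to Affymetrix arrays. The authors deposited log2 levels; the submitters' processing notes name RMA and limma, and no source used here states their versions or a genome build. Of 28846 probe sets, 6640 were controls, 19572 had 1 gene symbol and 2634 are unnamed here. No scanner file or detection call was used. The number of arrays limits the precision.

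KO and WT were compared with limma 3.58.1 (R 4.3.3) on all probe sets, without a replicate block, and p-values were adjusted by Benjamini-Hochberg over the 19572 (threshold 0.05). The fit was tested on simulated data. Members were named by fixed rule: in each complex and among assembly factors the 3 smallest p, all members past 2-fold, isoform sets, complex II subunits, and Atp5b; in each other list, the 3 smallest p and known regulators. Other members could be named with their change. Nubpl, the c subunit differences and the printed promoters were chosen after values were seen. Members and lists were chosen with earlier results of these data known. Alternatives covered normalization, dim probe sets, variance model, array weights, a 1.2-fold null, the block, and left-out arrays. Tables used Python 3.11.15.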

Additional observations from a re-analysis of the deposited data

Results flagged for a closer look

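In a group of 5 arrays, a highest or lowest value far from the other 4 (Dixon's criterion) was found in 9 of 198 member groups and 6 of 78 groups of other named genes, and chance gives about 1 in 20 groups. All values are log2 levels.

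Among complex I members, Ndufa10 was at 10.94 in WT replicate 1 against 10.33 to 10.51 in the others, and Ndufa8 was at 10.68 on the same array against 10.14 to 10.22. Ndufc1 was at 8.91 in KO replicate 1 against 9.34 to 9.48. In KO replicate 3, Ndufv2 was at 9.41 against 9.19 to 9.23 and the assembly factor Ndufaf3 at 7.73 against 7.10 to 7.26. Without that array Ndufaf3 passed the limma test as lower. Sdhaf1 was at 7.68 in WT replicate 4 against 7.81 to 7.86. In complex IV, Cox4i1 was at 9.76 in KO replicate 5 against 10.18 to 10.33, and Cox4i2 at 5.83 in WT replicate 5 against 6.07 to 6.17. Atp5k was at 7.87 in WT replicate 3 against 7.99 to 8.03.

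Outside the members, Tfam was at 7.50 in KO replicate 3 against 6.59 to 6.83, which made its groups overlap. Ppargc1b was at 7.80 in KO replicate 5 against 8.38 to 8.60. Mdh2 was at 12.51 in WT replicate 4 against 11.97 to 12.12, Ecsit at 8.08 in WT replicate 2 against 8.21 to 8.26, and Atpaf2 at 6.82 in WT replicate 1 against 7.13 to 7.23. Nfkbia was at 9.85 in WT replicate 5 against 8.95 to 9.19.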

How the results depend on the processing

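Over 23 alternatives, 61 members were lower in all 10 fits leaving out 1 array, and 28 members changed call under at least 1 alternative other than the spiked controls. Without 1 array, members lower numbered 62 to 69 (0 higher): complex I 25 to 28, its assembly factors 3 to 6, complex II 4, its assembly factors 0 to 1 (1 without WT replicate 1), III 9, IV 9 to 10, V 11 to 14, and other mitochondrial lists 62 to 91 lower and 1 to 3 higher. Medians ranged from -0.64 to -0.55 over all members, -0.71 to -0.61 in I, -0.56 to -0.47 and -0.12 to -0.04 in the assembly factors of I and II, -0.96 to -0.76 in II, -0.86 to -0.72 in III, -0.40 to -0.33 in IV and -0.70 to -0.55 in V.

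With the spiked controls as zero (added after seeing the data), lower and higher counts were 25 and 16 for all members, 13 and 3 for complex I, 1 and 1 for its assembly factors, 3 and 8 for IV, 3 and 2 for V, and 15 and 42 for the other lists; 1 member of II and 3 of III were lower, and 2 complex II assembly factors were higher. Over all probe sets 972 were lower and 12655 higher. Medians were -0.08 for all members, -0.17 in I, -0.03 and 0.42 in the assembly factors of I and II, -0.34 in II, -0.31 in III, 0.12 in IV and -0.12 in V. In all 37 members turned from below to above 0. Among the named genes past the test on either scale, signs turned for Atp5b (0.15), Cox4i2 (0.43), Cox6a1 (0.38), Cox6b1 (0.02), Cox7b2 (0.47), Cox8a (0.47), Cox8b (0.45), Lyrm7 (0.18), Vdac1 (0.02), Phb (0.02) and Nrf1 (0.43); among those past it on neither, for Cox7a2l (0.18), Ndufa4 (0.33), Ndufa4l2 (0.32), Ndufv3 (0.17), Sdhaf1 (0.25), Sdhaf3 (0.12), Uqcc1 (0.14) and Tefm (0.07). The cause was not tested.

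Against a 1.2-fold null (limma treat), 47 members were lower, with 1 complex I assembly factor, 8 of V, and 33 lower and 0 higher in the other lists. The share over all probe sets under that null is not given here. Array weights gave 2 complex II assembly factors lower and 4 higher genes in the other lists. Leaving out KO replicate 2 and WT replicate 4 gave 71 members lower and 1 complex II assembly factor. With the replicate block 67 members were lower and 1 gene of the other lists was higher. Deviations of same-numbered arrays correlated at -0.0136, -0.066, 0.36, 0.184 and -0.0579 for replicates 1 to 5, and 2 of 5 KO arrays correlated best with their own number. As this held for replicates 3 and 4 and not for the others, the numbers were not taken as pairs. Negative controls had array medians of 4.30 to 5.10, which limits what dim isoforms can show.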
